A study of Mus musculus with 9 samples.

Results

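The genes described here are 10 markers of the unfolded protein response (UPR) and the integrated stress response (ISR), *Hspa5*, *Hsp90b1*, *Pdia4*, *Dnajb9*, *Herpud1*, *Sdf2l1*, *Xbp1*, *Atf4*, *Ddit3* and *Trib3*. They were taken by symbol from the 51912 genes of the deposited table, and all 10 were found and could be tested. RNA had been sequenced from livers of *Apoe*-/- *Ndst1* f/f *Alb-Cre*+ mice that had received either an apoC-III antisense oligonucleotide (ASO; n = 5) or a control ASO (n = 4), at 50 mg/kg/week for 8 weeks. Both groups lack apoE in all cells and the heparan sulfate sulfotransferase NDST1 in cells that express the albumin-driven Cre, mainly hepatocytes, and both received an ASO, so neither an untreated nor a wild-type liver was compared. The livers came from fasted mice on the C57Bl/6 background, whose age, sex and diet are not given beside the RNA data.

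The UPR is the answer of the endoplasmic reticulum (ER) to unfolded secretory proteins, of which hepatocytes make large amounts. Its sensor IRE1 splices the mRNA of *Xbp1*, the sensor ATF6 is cut to release a transcription factor, and the sensor PERK phosphorylates eIF2α. The first pair raises chaperones and degradation factors of the ER, whereas phosphorylated eIF2α, which is also the signal of the wider ISR, favors translation of *Atf4*, whose protein in turn raises the mRNA of its targets, among them *Ddit3* and *Trib3*. Splicing of *Xbp1*, cleavage of ATF6 and translation of *Atf4* cannot be read from gene-level RNA, so the values below are amounts of mRNA only.

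Levels are given in normalized TPM. TPM (transcripts per 1000000) corrects each gene for its length, so levels of different genes can be compared. The 7SL RNA genes *Rn7s1* and *Rn7s2* held 64.0% to 83.6% of the deposited TPM, and nuclear protein-coding genes 1.94% to 8.64%. The latter were therefore rescaled to 1000000 per liver and divided by median-of-ratios factors (0.496 to 1.44), which align the typical gene between livers. Control ASO replicate 4 stood apart, with the lowest protein-coding share, the lowest factor and the fewest genes above 0 TPM (17992, against 18344 to 20928 in the other livers). TPM keeps no sequencing depth, so no counting error can be given. The target of the ASO, *Apoc3*, ranged between 334 and 622 normalized TPM after apoC-III ASO and between 3169 and 4291 after control ASO, which matches the labels of all 9. Albumin and the other 9 hepatocyte markers were present in both groups, as a liver sample should show.

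Short promoter sequences are shown for 3 of the genes, those with an exact match to an ER stress response element of either kind described below. In the RefSeq promoter windows of GRCm38.p6, which run from 250 bases before to 50 bases after each start site, both strands were searched for 4 elements. The ER stress response element (ERSE, CCAAT and CCACG with any 9 bases between them) was in 39 of 32851 windows (0.119%), among them those of *Hspa5* and *Hsp90b1*. ERSE-II (ATTGG and CCACG with any 1 base between them), which shares its CCACG with the ERSE, was in 0.0365% of windows and in that of *Herpud1*. The amino acid response element bound by ATF4 and C/EBP factors (TGATGNAA) was in 3.97% of windows and in those of *Herpud1* and *Trib3*. The UPR element TGACGTGG was in 0.676% of windows and in none of the 10. Only exact matches within the windows were counted, so elements with a mismatch or farther from the start site would be missed. Capitals mark the matches. The *Hspa5* sequence (chr2:34772020-34772049, plus strand, 70 to 41 bases before the RefSeq start, but within the span of the gene in GENCODE M21) holds 1 ERSE. The *Hsp90b1* sequence (chr10:86705525-86705674, minus strand) holds an ERSE in each orientation, and the *Herpud1* sequence (chr8:94386299-94386428, plus strand) holds the amino acid response element, read on the other strand, and then ERSE-II.
Hspa5: cttcaCCAATCGGAGGCCTCCACGacgggg
Hsp90b1: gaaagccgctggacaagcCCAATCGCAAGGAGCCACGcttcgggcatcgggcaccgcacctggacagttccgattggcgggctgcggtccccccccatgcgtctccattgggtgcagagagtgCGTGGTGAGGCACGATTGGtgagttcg
Herpud1: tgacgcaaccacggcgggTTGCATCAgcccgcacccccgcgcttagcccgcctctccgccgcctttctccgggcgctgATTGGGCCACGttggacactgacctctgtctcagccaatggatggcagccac

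No gene of the 10 was called different between apoC-III ASO and control ASO livers. With limma's trend method on log2(normalized TPM + 1), a call required more than a 1.5-fold difference together with an adjusted p (Benjamini-Hochberg) below 0.05. By that rule 0 of the 10 were called, against 2 of the 11968 genes tested (0.0167%, *Apoc3* and *Anpep*). At an unadjusted p under 0.05 in limma 0 of the 10 passed as well, where 5.57% of all genes did. The groups overlapped for each of the 10, and they did not overlap for 1.83% of all genes tested. The members' log2 fold changes ran from −0.55 (*Dnajb9*) to 0.13 (*Ddit3*). Their median was −0.13, against −0.00127 for all genes tested, and 8 of 10 were negative against 50.1% of all genes. Of these 8, *Herpud1* (−0.0155) and *Trib3* (−0.0152) had the smallest differences. Their mean levels, not logged, were higher after apoC-III ASO (661 against 605 and 3.14 against 2.93 normalized TPM). Dropping 1 liver at a time left between 6 and 10 genes negative, the fewest when control ASO replicate 2 was dropped. Scaling without the factors left 2 negative, although 7 then lay below the median of all genes. The count of negative genes was not tested. The lowest adjusted p of the 10 was 0.900, for *Hspa5*. In bulk liver, fewer cells of a type and less RNA per cell cannot be told apart.

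**Figure D1:**
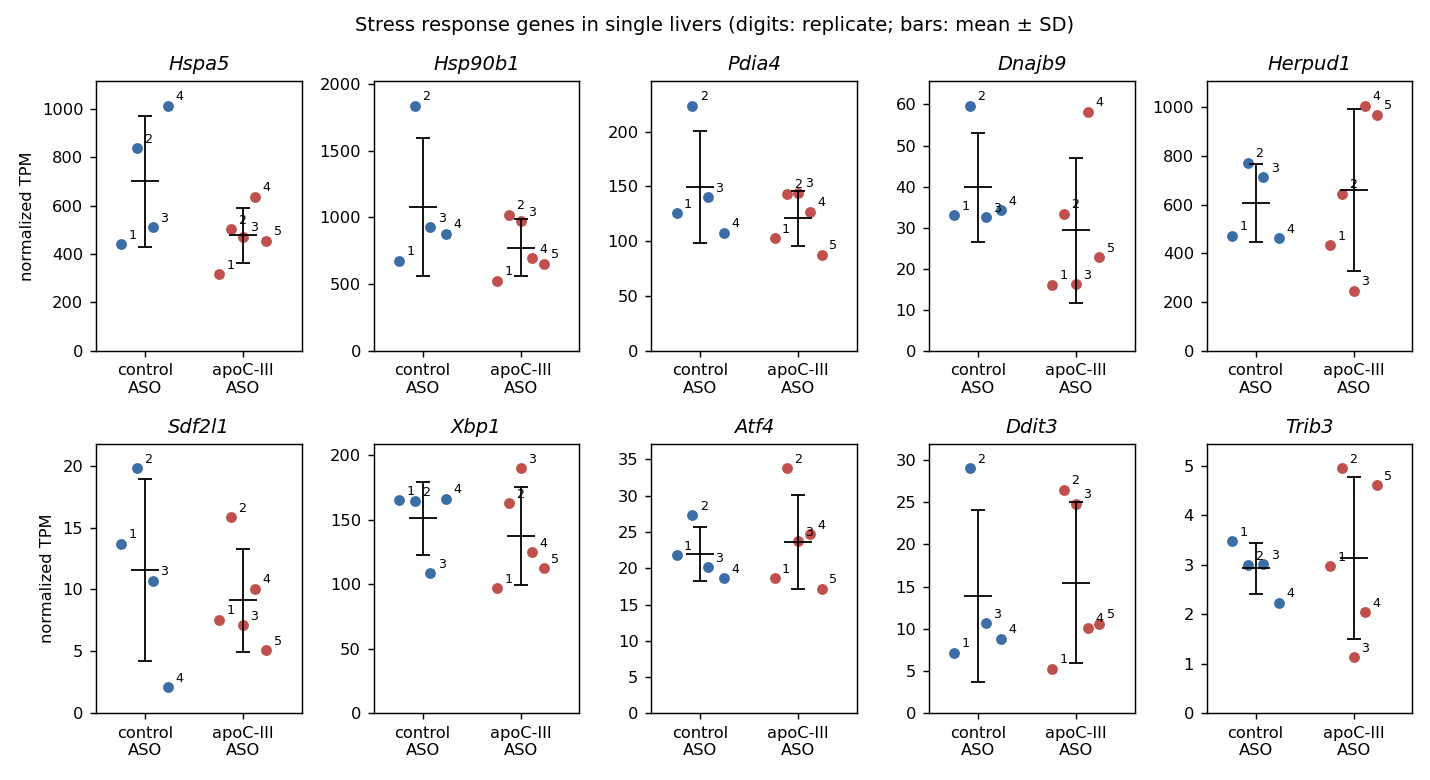
Normalized TPM of the 10 genes in each liver (points, with the replicate number beside them) in 4 control ASO and 5 apoC-III ASO livers, with mean and SD. The groups overlap in every panel, and control ASO replicate 2 is the highest control liver in 7 of the 10.

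*Hspa5* encodes BiP, the main chaperone of the ER lumen, which also holds the UPR sensors inactive. It lies on chromosome 2 of GRCm38 from 34771970 to 34777547 (plus strand). In apoC-III ASO replicates 1 to 5 it was at 316, 503.6, 472, 638 and 456 normalized TPM, and in control ASO replicates 1 to 4 at 441, 838, 511 and 1015 normalized TPM. Thus 2 controls lay above all apoC-III ASO livers while the other 2 lay among them. The means were 477 ± 115 (SD, n = 5) and 701 ± 271 (SD, n = 4), a log2 fold change of −0.51 with a 95% interval of −1.16 to 0.14 (limma, adjusted p = 0.900). The highest value belonged to control ASO replicate 4, in which protein-coding genes held the least of the deposited TPM. That liver was also the highest for 21.2% of all genes tested. There *Hspa5* was at 9.79 TPM as deposited, the lowest of all livers, against 27.0 to 52.8 TPM in the other controls. Without that liver the log2 fold change was −0.30, and without control ASO replicate 1 it was −0.701 (unadjusted p of 0.0447 in limma, adjusted p = 0.866).

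*Hsp90b1* encodes GRP94, the HSP90 of the ER (chromosome 10, 86690209 to 86705509, minus strand), and was the most abundant of the 10. ApoC-III ASO replicates 1 to 5 had 526, 1019, 972, 694 and 651 normalized TPM, and control ASO replicates 1 to 4 had 675, 1839, 925 and 877. A single liver, control ASO replicate 2, was far above the rest, and the other 8 livers were intermixed. This gave a log2 fold change of −0.42 (95% interval −1.11 to 0.27, adjusted p = 0.913 in limma), and it was −0.13 without that liver.

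*Pdia4* encodes ERp72, a disulfide isomerase of the ER (chromosome 6, 47796141 to 47813430, minus strand). It had 103, 143, 144, 127 and 87.8 normalized TPM in apoC-III ASO replicates 1 to 5 and 126, 224, 140 and 108 in control ASO replicates 1 to 4. Control ASO replicate 2 was again the highest, and the remaining values formed a single range. This gave a log2 fold change of −0.27 (95% interval −0.83 to 0.29, adjusted p = 0.942 in limma) and −0.0597 without control ASO replicate 2.

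*Dnajb9* encodes ERdj4, a J protein that delivers BiP to the sensor IRE1 and is a target of XBP1 (chromosome 12, 44205559 to 44210326, minus strand). Its values in apoC-III ASO replicates 1 to 5 were 16.1, 33.4, 16.2, 58.3 and 22.7 normalized TPM. In control ASO replicates 1 to 4 they were 33.0, 59.7, 32.6 and 34.2 normalized TPM. Of the treated livers 3 were below all controls, but apoC-III ASO replicate 4 was close to the highest control. The negative difference was the largest of the 10 but did not pass the test, with a log2 fold change of −0.55 (95% interval −1.36 to 0.26, adjusted p = 0.902 in limma). It was −0.84 without apoC-III ASO replicate 4 (unadjusted p of 0.0184 in limma, adjusted p = 0.653) and −0.35 without control ASO replicate 2 (unadjusted p of 0.398 in limma, adjusted p = 0.936).

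*Herpud1* encodes an ER membrane protein that assembles the machinery of ER-associated degradation (chromosome 8, 94386438 to 94395377, plus strand). It had 434, 645, 246, 1007 and 970 normalized TPM in apoC-III ASO replicates 1 to 5 and 473, 772, 713 and 463 in control ASO replicates 1 to 4. The apoC-III ASO group held both the highest and the lowest livers, a 4.10-fold range against 1.67-fold among controls. The log2 fold change of −0.0155 (95% interval −0.89 to 0.86) therefore had a wide error, and its sign depended on single livers and on the scaling.

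*Sdf2l1*, an ER-resident partner of BiP and a low-abundance member (chromosome 16, 17130138 to 17132383, minus strand), had 7.56, 15.8, 7.12, 10.1 and 5.08 normalized TPM in apoC-III ASO replicates 1 to 5. In control ASO replicates 1 to 4 it had 13.7, 19.8, 10.7 and 2.13 normalized TPM. The extremes were both controls. The lowest, replicate 4, rested on 0.0206 TPM as deposited. With all livers the log2 fold change was −0.11 (95% interval −1.19 to 0.97), and without replicate 4 it was −0.68 (adjusted p = 0.945 in limma).

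*Xbp1*, the transcription factor made by the IRE1 arm (chromosome 11, 5520659 to 5525893, plus strand), had 96.9, 163, 190, 125 and 113 normalized TPM in apoC-III ASO replicates 1 to 5 and 165, 164, 109 and 167 in control ASO replicates 1 to 4. In the controls 3 values were nearly equal and the other was among the lowest of all livers. The log2 fold change was −0.16 (95% interval −0.701 to 0.39, adjusted p = 0.966 in limma). It was −0.0434 without apoC-III ASO replicate 1 and −0.31 without control ASO replicate 3. These values sum over the spliced and unspliced forms.

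Of the ISR genes, *Atf4* (chromosome 15, 80255184 to 80257541, plus strand), the transcription factor that the ISR induces by translation, had 18.7, 33.8, 23.7, 24.7 and 17.2 normalized TPM in apoC-III ASO replicates 1 to 5. Control ASO replicates 1 to 4 had 21.8, 27.3, 20.2 and 18.6 normalized TPM. Its livers overlapped widely. It had the narrowest interval of the 10, with a log2 fold change of 0.0745 (95% interval −0.44 to 0.59, adjusted p = 0.990 in limma). A 1.5-fold difference upward lay just inside that interval and one downward lay outside it.

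*Ddit3* encodes CHOP, the factor of the ISR tied to cell death (chromosome 10, 127290774 to 127296288, plus strand). It had 5.26, 26.4, 24.8, 10.1 and 10.6 normalized TPM in apoC-III ASO replicates 1 to 5 and 7.19, 29.0, 10.7 and 8.83 in control ASO replicates 1 to 4. In 3 livers, from both groups, values were at more than 24 and the other 6 at less than 11, with nothing between. The log2 fold change was 0.13 (95% interval −0.93 to 1.20, adjusted p = 0.992 in limma). *Ddit3* overlaps *Mars*, which lies on the opposite strand and had 0.424 to 2.70 TPM as deposited. Whether the quantification used strand is not given in the sources used here.

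*Trib3*, a pseudokinase induced by CHOP and ATF4 and also regulated by fasting in liver (chromosome 2, 152337422 to 152344032, minus strand), was the lowest of the 10. It had 2.97, 4.95, 1.13, 2.05 and 4.61 normalized TPM in apoC-III ASO replicates 1 to 5 and 3.47, 2.99, 3.01 and 2.23 in control ASO replicates 1 to 4. The controls lay within the range of the treated livers. The log2 fold change was −0.0152 (95% interval −0.72 to 0.69, adjusted p = 0.998 in limma), on a scale where the pseudocount of 1 shrinks changes of a gene this low.

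**Figure D2:**
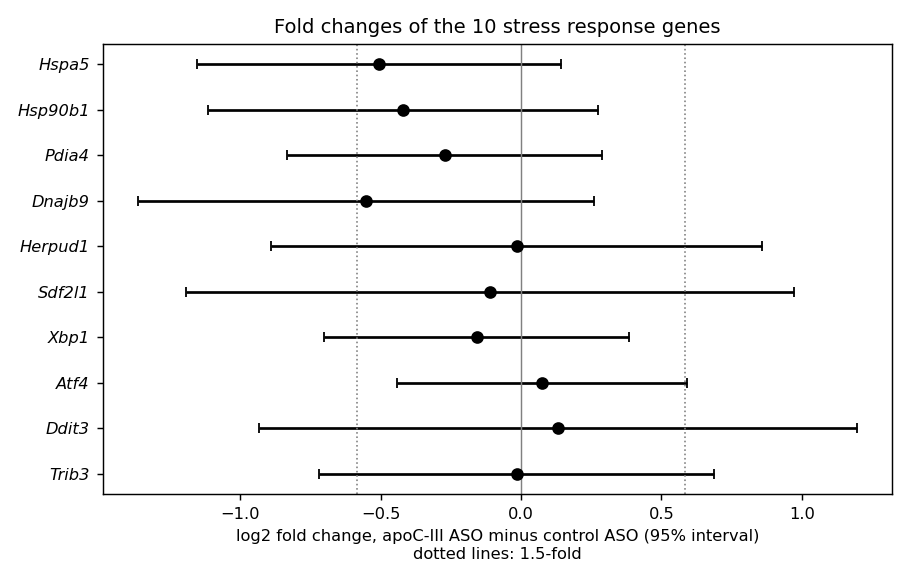
Log2 fold change of each of the 10 genes, apoC-III ASO minus control ASO, with 95% intervals from limma, and dotted lines at 1.5-fold in either direction. All intervals cross 0, and those of the genes with the most variable livers, *Sdf2l1*, *Ddit3* and *Herpud1*, are the widest.

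The abundance of the 10 spanned a wide range. Averaged over the 9 livers, *Hsp90b1* (909 normalized TPM), *Herpud1* (636) and *Hspa5* (577) were each above more than 98% of the genes tested. *Xbp1* (144) and *Pdia4* (134) followed, above more than 94% of them, and *Dnajb9* (34.0), *Atf4* (22.9), *Ddit3* (14.8), *Sdf2l1* (10.2) and *Trib3* (3.05) came after. Neighbors in this order were not always distinct. *Xbp1* exceeded *Pdia4* in some livers only, and *Herpud1* and *Hspa5* changed places between livers. The ratio of *Herpud1* to *Hspa5* within a liver ran from 0.521 to 2.13 after apoC-III ASO and from 0.456 to 1.40 after control ASO.

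Ratios within a liver do not change under any scaling that applies a single factor to each liver, although they do under quantile normalization. The ratios of the other 9 genes to *Hspa5* were compared between groups by exact permutation of the log2 ratios (two-sided), a comparison added after the values had been seen. None of the 9 passed after Benjamini-Hochberg adjustment over the 9 ratios (adjusted p of 0.768 to 0.865), and the smallest unadjusted exact permutation p was 0.127, for *Atf4*. Relative to *Hspa5*, *Atf4* lay between 0.0376 and 0.0671 after apoC-III ASO and between 0.0184 and 0.0495 after control ASO, which overlap. For *Hsp90b1* the ratio was 1.09 to 2.06 against 0.864 to 2.19, with geometric means of 1.61 and 1.51.

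The 10 genes also varied between livers within each group. Control ASO replicate 2 was the highest of all 9 livers for 5 of the 10 genes (*Hsp90b1*, *Pdia4*, *Dnajb9*, *Sdf2l1* and *Ddit3*), while it was the highest for 10.6% of all genes tested. Among apoC-III ASO livers replicate 2 was the highest for 5 of the 10 (*Hsp90b1*, *Sdf2l1*, *Atf4*, *Ddit3* and *Trib3*), against 18.1% of all genes. With each gene centered on its mean over the livers, the median of the 10 was 0.704 in control ASO replicate 2 and 0.24 in apoC-III ASO replicate 2 on the log2 scale. It was lowest in apoC-III ASO replicate 1, at −0.48. The corresponding medians over all genes lay between −0.00778 and 0.00631. These are descriptions of single livers, found after the values had been seen and with no test.

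**Figure D3:**
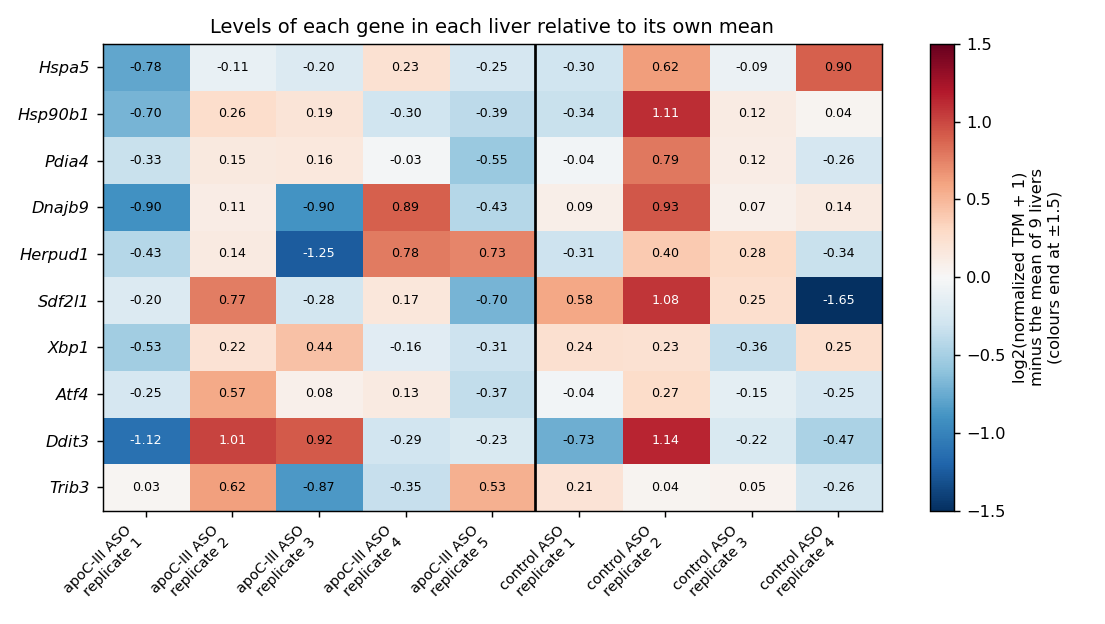
Log2(normalized TPM + 1) of each of the 10 genes (rows) in each liver (columns, apoC-III ASO left of the line and control ASO right) minus the gene's mean over 9 livers, printed in each cell. Control ASO replicate 2 is above the mean for all 10 genes, whereas *Herpud1* and *Ddit3* differ in opposite directions between apoC-III ASO replicates 3 and 4.

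How the other 9 genes varied with *Hspa5* was asked over the 9 livers on the log2 scale. The closest was *Dnajb9* (Pearson r = 0.69, exact permutation p = 0.0357; Spearman rho = 0.80, exact permutation p = 0.0138), which did not pass the adjustment over the 9 pairs (adjusted p = 0.321 and 0.124 in the exact permutation test). Its r was 0.79 without control ASO replicates 2 and 4, the livers farthest from the median *Hspa5* level, and 0.601 after centering each group. For *Hsp90b1* r was 0.62 and rho 0.62 (exact permutation p = 0.0729 and 0.0857, adjusted 0.328 and 0.386), and r was 0.54 without the same livers. The r of the remaining 7 ran from −0.22 (*Trib3*) to 0.48 (*Xbp1*), with adjusted exact permutation p of 0.593 to 0.661. In TPM as deposited 8 of the 9 pairs had an adjusted exact permutation p under 0.05, with r of 0.75 to 0.957 for those 8. The share of protein-coding TPM also differed between livers on that scale, and its part in these correlations was not tested. No pair therefore had an adjusted exact permutation p under 0.05 on both scales. The r was positive on both scales except for *Sdf2l1* and *Trib3*. It was 0.69 and, as deposited, 0.95 for *Dnajb9*, and 0.62 and 0.95 for *Hsp90b1*.

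Among the other pairs, *Hsp90b1* followed *Pdia4* (r = 0.88) and *Ddit3* (r = 0.83) most closely over the 9 livers, and *Herpud1* ran against *Xbp1* (r = −0.46). These are the extremes of 45 pairs, given as a description. The tested genes outside the 10 most like *Hspa5* in their pattern over the 9 livers were *Rnf181* (r = 0.97), *Trim47* (0.96), *Utp18* (0.94), *Rps6kb2* (0.93) and *Gstp3* (0.92). All 5 peaked in control ASO replicate 4, as *Hspa5* did, but they were picked for that likeness over the same livers. That liver was also the highest for 21.2% of all genes tested.

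The wider pathway was examined with 4 lists of genes outside the 10. The sensors and regulators of the UPR and ISR comprised 16 genes, among them *Ern1* (IRE1), *Eif2ak3* (PERK) and *Atf6*, and all 16 were tested. Their median log2 fold change was 0.00292, and they split evenly, 8 being higher after apoC-III ASO and 8 lower. In limma 1 was higher at an unadjusted p under 0.05, as were 359 of the 11968 genes tested, and 0 were lower or called. That gene was *Eif2ak2*, which encodes PKR, the eIF2α kinase activated by double-stranded RNA and an interferon-induced gene. It had 18.5, 36.7, 23.6, 15.97 and 27.6 normalized TPM in apoC-III ASO replicates 1 to 5 and 10.5, 16.3, 13.4 and 11.04 in control ASO replicates 1 to 4. Only the lowest treated liver fell below the highest control. The log2 fold change was 0.85 (95% interval 0.27 to 1.42), with an adjusted p of 0.860 in limma. *Creb3l2* (0.63) and *Ern1* (0.57) had the next largest differences, with unadjusted p of 0.0519 and 0.0988 in limma. Control ASO replicate 2 was the highest of all 9 livers for 2 of the 16, near the share over all genes.

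Of 25 other ER chaperones and folding enzymes, such as *Calr*, *Canx*, *P4hb* and *Hyou1*, 17 were lower and 8 higher, with a median log2 fold change of −0.17. In limma 0 passed an unadjusted p under 0.05 in either direction, where 2.57% of all genes passed downward. The largest difference was that of *Canx*, calnexin, a lectin chaperone (log2 fold change −0.63, 95% interval −1.57 to 0.300, adjusted p = 0.902 in limma). It rested on control ASO replicate 4, at 1267 normalized TPM, while the other controls had 261 to 310 and the apoC-III ASO livers 210 to 365. *Txndc11* (0.52) and *Ero1lb* (0.48) were next in size, both higher. Control ASO replicate 2 was the highest of all 9 livers for 14 of the 25.

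The 29 genes of ER-associated degradation and of the translocon held no called gene either, with 20 lower, 9 higher, a median of −0.0745 and 0 past an unadjusted p under 0.05 in limma. Their largest differences were those of *Sec63* (−0.59), *Sec23b* (−0.53) and *Sec61g* (−0.52), which serve entry into the ER and export from it. Control ASO replicate 2 was the highest of all 9 livers for 12 of the 29.

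Of 31 other targets of ATF4 and CHOP, 24 reached the level required for testing. *Fgf21*, *Phgdh*, *Psat1*, *Slc7a11*, *Slc7a5*, *Stc2* and *Vldlr* did not. After apoC-III ASO 17 of the 24 were higher and 7 lower, with a median of 0.12. In limma 1 was higher at an unadjusted p under 0.05, 0 were lower and 0 were called. That gene was *Gdf15*, a secreted stress hormone, which ranged from 4.71 to 8.68 normalized TPM after apoC-III ASO and was at 0.216, 2.04, 4.70 and 5.01 in control ASO replicates 1 to 4 (log2 fold change 1.17, 95% interval 0.23 to 2.12, adjusted p = 0.860 in limma). The lowest treated liver and the highest controls were close together. *Asns*, asparagine synthetase, differed the other way (−0.67, 95% interval −1.71 to 0.38), and *Nupr1* was at 0.58 (95% interval −0.57 to 1.73). The highest of all 9 livers was control ASO replicate 2 for 1 of the 24.

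**Figure D4:**
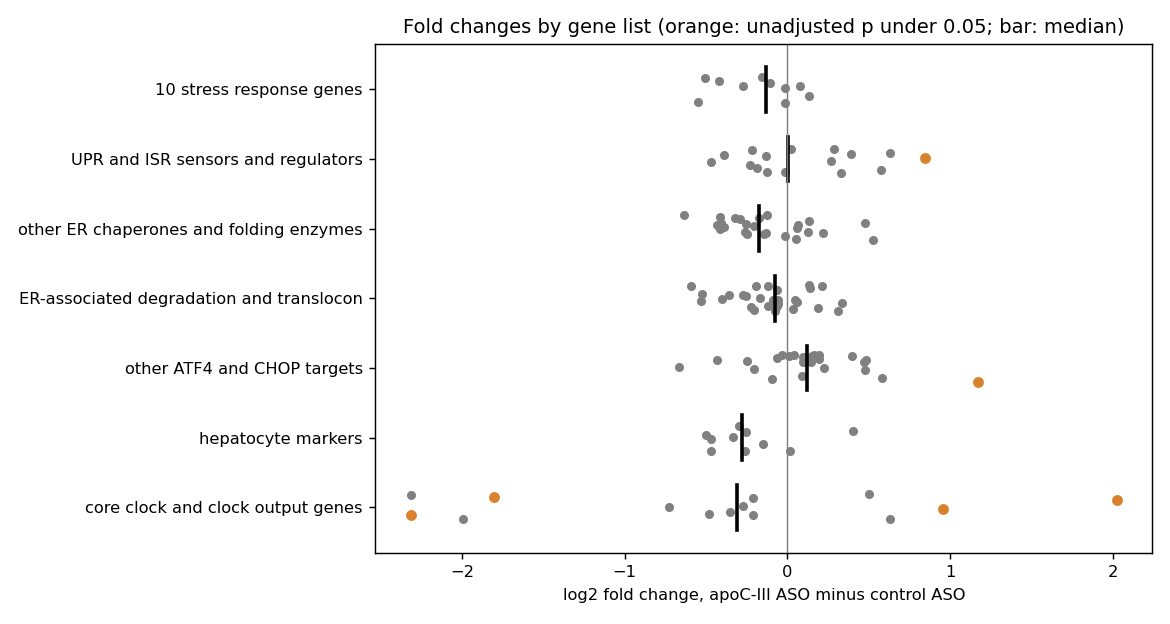
Log2 fold change of each tested gene (points) in the 10 genes, the 4 wider pathway lists, the hepatocyte markers and the clock genes, apoC-III ASO minus control ASO, with medians as bars and genes at an unadjusted p under 0.05 in orange. The pathway lists center near 0 with *Eif2ak2* and *Gdf15* in orange, and the clock genes spread the furthest.

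Markers of liver cell types and clock genes were read beside these values. Hepatocyte markers were lower in 8 of 10 (median log2 fold change −0.28, 0 past an unadjusted p under 0.05 in limma), and their summed level lay between 25713 and 55697 normalized TPM after apoC-III ASO and between 34242 and 47675 after control ASO. The largest differences among them were those of *Serpina1a* (−0.50), *Tat* (−0.47) and *Ass1* (−0.47). Of 8 stellate cell markers, 6 were lower and 2 higher, with a median of −0.37. At an unadjusted p under 0.05 in limma 2 of the 8 were lower, *Lrat* (−0.89) and *Dcn* (−0.57), and *Col1a1* was at −0.75. Their summed levels were 124 to 151 normalized TPM after apoC-III ASO and 140 to 268 after control ASO. The groups did not overlap for *Lrat*, and 0 of the 8 were called. The summed levels of macrophage and leukocyte, endothelial and cholangiocyte markers overlapped, and 0 of their 9, 8 and 3 tested genes passed. Of the macrophage and leukocyte genes 5 were higher and 4 lower, of the endothelial genes 5 and 3, and of the cholangiocyte genes 1 and 2. The largest differences in these lists were those of *Marco* (0.67), *Lyve1* (0.52) and *Sox9* (0.47). Of 14 clock genes tested 4 passed an unadjusted p under 0.05 in limma, *Arntl* (2.02) and *Nfil3* (0.96) upward and *Per2* (−2.31) and *Per3* (−1.80) downward, and 0 were called. *Arntl* was at 17.7, 11.1, 30.9, 0.740 and 2.74 normalized TPM in apoC-III ASO replicates 1 to 5 and between 0.320 and 2.46 in the controls. *Per2* was at 3.35, 8.31, 4.803, 25.1 and 40.5 in the same treated livers and between 12.1 and 130 in the controls. *Herpud1* was higher in apoC-III ASO replicates 4 and 5 than in replicates 1 to 3, as *Per2* was. This likeness was picked after the values had been seen, and no other of the 10 genes shared it. Averaged by group, *Per2* was at 16.4 normalized TPM after apoC-III ASO and 78.4 after control ASO, and *Herpud1* was at 661 and 605. The part of these markers and of clock phase in the stress response values was not tested.

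In TPM as deposited 7 of the 10 genes had a mean of at least 1 and were tested. None was called or reached an unadjusted p under 0.05 in limma, where 2.01% of 4936 genes reached it. *Ddit3*, *Sdf2l1* and *Trib3* were below that level. The median log2 fold change of all genes was then 0.11, and that of the 7 was −0.0395, with 6 of 7 below the median of all genes. Rescaling of protein-coding genes without the factors moved the median of all genes to 0.41, and 7 of the 10 lay below it.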

How the data were processed

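Ribosomal RNA-depleted, stranded, single-end libraries of 9 livers had been sequenced. Gene-level TPM were deposited by the authors, and the submitters' processing notes name kallisto 0.43.1 and GRCm38. The methods of the study name STAR, featureCounts and DESeq2, and read counts are not analysed here. Of 51912 genes, 99.6% matched GENCODE M21 by identifier. Values of the 21857 nuclear protein-coding genes were scaled to sum to 1000000 in each liver, then divided by median-of-ratios factors from the 12263 of them above 0 in all livers. This replaces TPM as deposited, in which noncoding RNAs set the scale. Genes with a mean of at least 1 were tested with limma 3.58.1 (R 4.3.3, eBayes with trend) on log2(value + 1), without covariates, on all 9 livers. Fold changes refer to that scale and understate changes of low genes. Replicates are livers that the labels number separately. The p-values from limma set the group difference against the spread between these livers, with a variance that eBayes moderates over all genes tested. The steps were tested on simulated data, which does not show how small a change in the 10 genes would be called. Named genes are the 10, up to 5 per list with the smallest unadjusted p under 0.05, the 3 largest changes per list, the 5 most like *Hspa5*, and *Apoc3*, *Apoe* and *Ndst1*. Others, such as *Anpep* and *Mars*, were named after their values were seen. *Apoe* ranged from 23.2 to 66.3 and *Ndst1* from 4.804 to 11.6 normalized TPM over the 9 livers, which cannot check the genotype because all livers carry the same alleles. The members and lists were chosen with earlier results of these data known. Alternatives were other scalings, pseudocounts, filters and variance models, each liver left out, and a replicate block. Analyses used Python 3.11.15, numpy 2.4.6, scipy 1.17.1, pandas 2.3.3 and matplotlib 3.10.9.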

Additional observations from a re-analysis of the deposited data

Results flagged for a closer look

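Among 20 sets of values (10 genes in 2 groups), 3 held a liver far from the others of its group by Dixon's criterion. The criterion was applied to normalized TPM, not logged. Chance alone meets it in about 1 of 20 sets when the sets are independent. These sets come from the same 9 livers and are not independent, so the count of 3 cannot be judged against that rate. All 3 livers flagged were control ASO livers, and control ASO replicate 2 was flagged for both *Dnajb9* and *Ddit3*. *Dnajb9* was at 59.7 normalized TPM in control ASO replicate 2, against 32.6 to 34.2 in the other controls. *Ddit3* was at 29.0 in the same liver, against 7.19 to 10.7. *Xbp1* was at 109 in control ASO replicate 3, against 164 to 167.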

How the results depend on the processing

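In all 21 alternatives 0 of the members tested were called and their groups overlapped. All 10 were tested in each, except 7 in TPM as deposited, with or without control ASO replicate 4, and in median-of-ratios scaling of all genes, and 9 with a mean minimum of 5. Over all genes, each alternative called only 1 to 11, for example 11 of 4936 in TPM as deposited and 1 of 17045 with no filter on low values. In the main fit the groups did not overlap for 1.83% of all genes. The replicate block left 1 gene at an unadjusted p under 0.05 (*Hspa5*, log2 fold change −0.499, p of 0.0403 in limma; apoC-III ASO replicate 5 has no partner and adds nothing there), and leaving out single livers left 0 to 1 (*Dnajb9* without apoC-III ASO replicate 4, *Hspa5* without control ASO replicate 1). TPM keeps no depth, so the limit on low genes is unknown. Of 200 fold changes under the alternatives, 174 kept their sign and 26 reversed it. Without the factors, *Hsp90b1* was at 0.0592, *Pdia4* at 0.20, *Herpud1* at 0.46, *Sdf2l1* at 0.25, *Xbp1* at 0.32 and *Trib3* at 0.31, all below the median of all genes except *Herpud1*. In TPM as deposited *Herpud1* was at 0.28 and *Xbp1* at 0.10, and *Atf4* was at −0.16 once control ASO replicate 4 was also left out, an alternative added after seeing the data. Quantile normalization gave 0.15 for *Herpud1*, and the replicate block 0.0520 for *Sdf2l1*. With single livers left out, the ranges were −0.0600 to 0.18 for *Atf4*, −0.11 to 0.53 for *Ddit3*, −0.21 to 0.29 for *Herpud1*, −0.68 to 0.23 for *Sdf2l1* and −0.17 to 0.20 for *Trib3*. For the genes that stayed negative they were −0.701 to −0.30 for *Hspa5*, −0.61 to −0.13 for *Hsp90b1*, −0.41 to −0.0597 for *Pdia4*, −0.84 to −0.35 for *Dnajb9* and −0.31 to −0.0434 for *Xbp1*. The correlation of *Hspa5* with *Sdf2l1*, −0.20, was 0.94 in TPM as deposited and 0.29 without 2 livers, and that with *Trib3*, −0.22, was 0.61 in TPM as deposited. The cause was not tested. The labels do not say that replicate numbers pair livers. Deviations of same-numbered livers correlated at 0.0673, 0.12, 0.0280 and 0.19 for numbers 1 to 4. Of apoC-III ASO replicates 1 to 4, only replicate 4 correlated best with the control liver of its own number. Over all genes the block gave 3 calls in place of 2.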
